A study of Mus musculus with 15 samples.

Results

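The 9 genes described here are transcription factors and inhibitors that set whether a B cell stays in the germinal centre or becomes a plasma cell. They are *Bcl6*, *Bcl11a*, *Mef2b*, *Mef2c*, *Irf4*, *Irf8*, *Prdm1*, *Id2* and *Id3*, a list fixed by name with earlier results of these data known. All 9 were found by Ensembl identifier among the 41388 genes of the deposited count tables. Each of the 9 was also among the 13904 genes that passed the filter on low counts. RNA was sequenced from A20, a B cell lymphoma line of the BALB/c mouse strain, as the uncloned A20 parental line with wild-type *Foxp1* and as 4 clones made with CRISPR/Cas9. Clones E6.1 and E6.2 carried a frameshift in *Foxp1* exon 6, and clones E7.1 and E7.2 one in exon 7. By the paper's Western blots, guides for both exons silenced the full-length Foxp1 protein. Of the shorter forms, exon 6 targeting removed the largest, and exon 7 targeting removed all those of the parental cells. Each clone grew from 1 sorted cell that had received a plasmid for Cas9 and a guide, and no clone with a non-targeting guide was included. The loss of Foxp1 protein, in part or whole, and the descent from 1 cell therefore cannot be told apart in a single clone. There were 3 libraries per line, 15 in all, taken at different passages.

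In a germinal centre, B cells divide and mutate their antibody genes under the repressor Bcl6, which is switched on in part by Mef2b and Mef2c. Exit to the plasma cell fate requires Irf4 and Blimp-1, the protein of *Prdm1*. Blimp-1 and Bcl6 repress each other's genes, and a high level of Irf4 represses *Bcl6*. Irf8 is related to Irf4 and favours the germinal centre state, Bcl11a is a repressor needed early in the B lineage, and Id2 and Id3 hold E proteins such as E2A away from DNA. Foxp1 is a forkhead factor for which a role in restraining the step to plasma cells has been described.

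Total counts per library were between 26328054 and 39181530. *Foxp1* RNA (chr6:98925338-99522721 of GRCm38, minus strand) was 138 ± 32.7 CPM (SD, n = 3) in A20 parental cells, where CPM is the count scaled to the library size by the TMM method. It fell 2.44-fold in E7.1 (log2 fold change -1.29 ± 0.20 SE, adjusted p = 0.00688) and 3.22-fold in E7.2 (-1.69 ± 0.20, adjusted p = 0.00115) by the edgeR quasi-likelihood test. In the E6 clones the log2 fold changes of -0.41 (E6.1, adjusted p = 0.765) and -0.39 (E6.2, adjusted p = 0.417) were not called. RNA does not measure the Foxp1 protein, whose knockout the paper reports as stable by Western blots of the sequenced replicates. Of 8 B cell markers 7 were found, and all 7 passed the filter, with a summed level of 2902 to 4476 CPM per library. The 6 T cell markers summed to 0.150 to 0.607 CPM and the 4 stromal markers to 0.0268 to 0.786 CPM. The 5 myeloid markers summed to 0.421 to 8.10 CPM, of which *Adgre1* was 0.421 to 7.56 CPM, with *Lyz2* and *Cd14* at 3 counts or fewer in every library. E7.2 replicate 3 and E6.2 replicate 3 had the lowest TMM factors, 0.826 and 0.906, where the others were between 0.966 and 1.05. For the called regulators and those that moved most, values are also given without these 2 libraries.

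The sequence before the start of *Prdm1*, *Irf4* and *Bcl6* is shown because the first pair moved together in clone E6.2 and Bcl6 stands opposite them in the fate choice. Each run is the 250 bases before a RefSeq start site (GRCm38.p6, the build of the count tables), read 5′ to 3′ on the gene's strand. Capitals mark matches, on either strand, to the forkhead core TGTTTAC or to a Bcl6 site TTCCTNGAA.
*Prdm1*, chr10:44458749-44458998, minus strand: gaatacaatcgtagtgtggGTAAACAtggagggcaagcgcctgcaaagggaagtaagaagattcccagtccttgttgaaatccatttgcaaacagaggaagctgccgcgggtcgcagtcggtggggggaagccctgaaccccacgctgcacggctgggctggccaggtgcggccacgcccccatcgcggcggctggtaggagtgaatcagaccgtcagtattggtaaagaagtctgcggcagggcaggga
*Irf4*, chr13:30748983-30749232, plus strand: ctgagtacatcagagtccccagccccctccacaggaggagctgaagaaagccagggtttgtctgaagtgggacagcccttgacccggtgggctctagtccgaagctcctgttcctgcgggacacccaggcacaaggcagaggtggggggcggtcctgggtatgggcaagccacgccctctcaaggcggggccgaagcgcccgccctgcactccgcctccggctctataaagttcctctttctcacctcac
*Bcl6*, second start site, chr16:23981284-23981533, minus strand: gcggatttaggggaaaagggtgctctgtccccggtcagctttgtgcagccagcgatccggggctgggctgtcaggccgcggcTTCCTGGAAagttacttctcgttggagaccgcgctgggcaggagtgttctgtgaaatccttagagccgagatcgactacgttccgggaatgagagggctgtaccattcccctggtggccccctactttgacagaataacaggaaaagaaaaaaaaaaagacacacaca
The *Prdm1* run holds 1 forkhead core, as GTAAACA, 231 to 225 bases before the start site. Of the 13 promoters that RefSeq lists for the 9 genes, 1 held the forkhead core, against 3.65% of all 32851 promoters of 300 bases, the window searched. The *Irf4* run held neither motif. The Bcl6 site in the *Bcl6* run is 168 to 160 bases before the start site, and 1 of the 13 promoters and 1.59% of all promoters held that motif. The run before the first start site of *Bcl6*, which is not printed, held neither motif. A match describes the letters in the window only, since no binding was measured.

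The 9 genes covered a wide range of levels in A20 parental cells. Compared per kilobase of exon, *Mef2c* was highest at 107 ± 10.3 CPM per kilobase (SD, n = 3), followed by *Bcl6* at 42.3 ± 9.73, *Irf8* at 19.2 ± 3.42 and *Irf4* at 9.37 ± 1.27. *Bcl11a* at 5.18 ± 1.87 and *Id2* at 4.14 ± 1.54 CPM per kilobase overlapped in their libraries and were not separated. Below them were *Prdm1* at 2.06 ± 0.324, *Mef2b* at 1.19 ± 0.426 and *Id3* at 0.473 ± 0.147 CPM per kilobase. *Mef2c*, *Bcl6* and *Irf8* were thus the most abundant of the 9 per length, and *Prdm1* RNA was present in every library. The order differed in E6.2, where *Irf4* at 3.01 ± 0.791 CPM per kilobase overlapped *Bcl11a* and *Id2*, and *Prdm1* at 0.344 ± 0.0577 lay below *Mef2b*. In E7.1, *Id2* at 9.11 ± 4.02 CPM per kilobase overlapped *Irf4* at 7.42 ± 1.46.

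**Figure D1:**
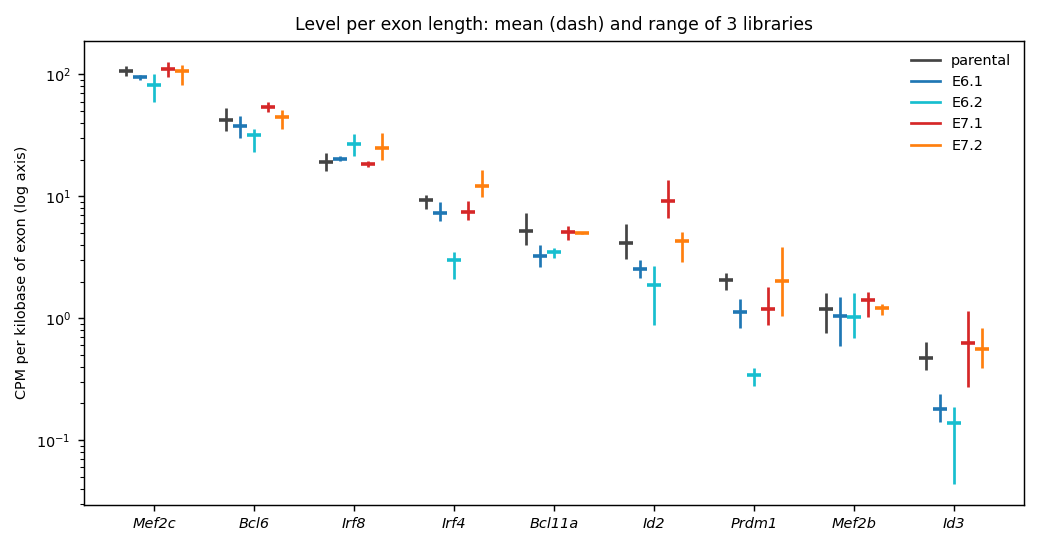
Level of each of the 9 genes per kilobase of exon (vertical log axis, CPM per kilobase) in the 5 lines; the dash is the mean and the line the range of 3 libraries. *Mef2c* is highest in every line, and *Irf4* and *Prdm1* in E6.2 lie below all other lines.

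The first comparison asked which of the 9 genes differed between each clone and A20 parental cells. In E6.2, 2 of the 9 passed the test and both fell, *Irf4* and *Prdm1*. Of all tested genes, 1.17% were called in E6.2, and 1.01% were called lower. In the other 3 clones 0 of the 9 were called, where the share of all tested genes was 0.324% for E6.1, 1.22% for E7.1 and 0.295% for E7.2. An unadjusted p under 0.05 was found for 6 of the 9 in E6.2 and for 13.1% of all tested genes, and for 2 of the 9 in E6.1 and 6.71% of all. In E7.1 it was found for 1 of the 9, where 20% of all tested genes had one, and in E7.2 for 0 of the 9, where 13.3% had one. The DESeq2 Wald test also called 0 of the 9 in each of those 3 clones. The p-values measure the spread between passages of a line.

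**Figure D2:**
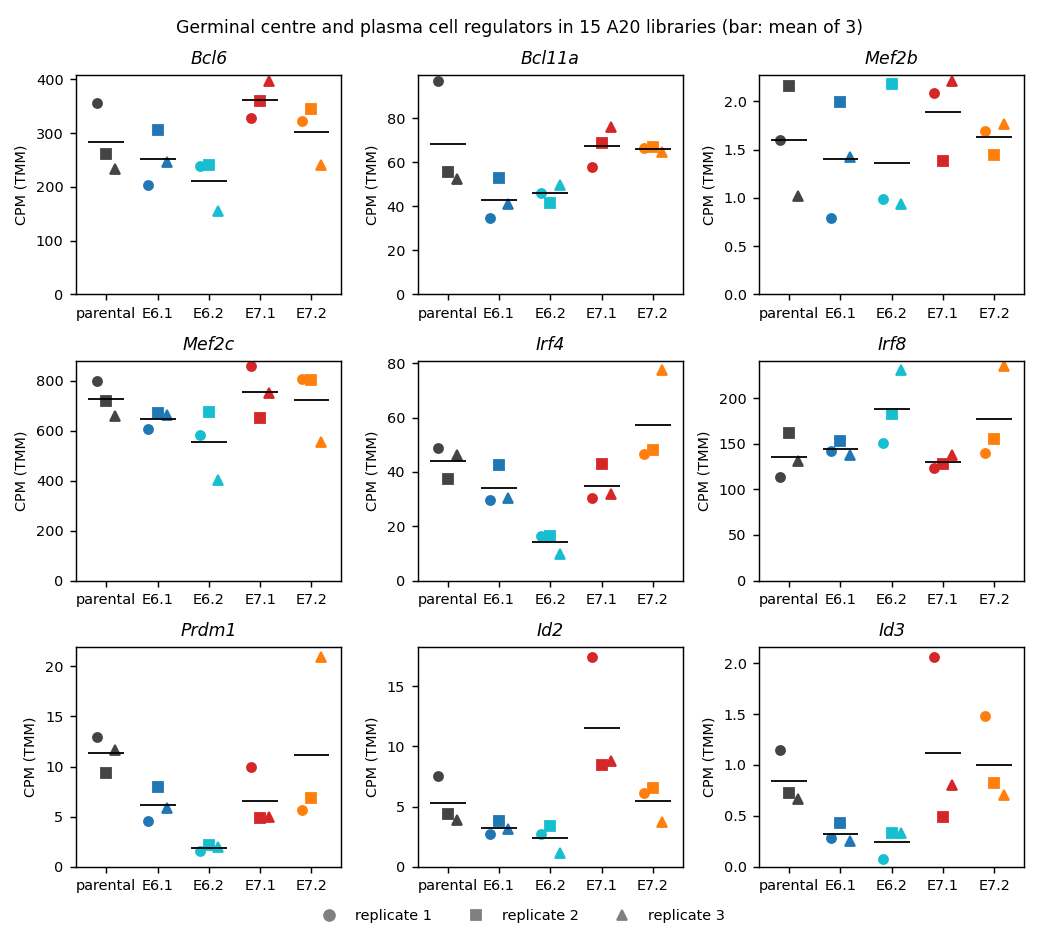
CPM of each gene (vertical axes from 0) in the 15 libraries, grouped by line on the horizontal axis; symbols give the replicate number and bars the mean of 3. All 3 E6.2 libraries are lowest for *Irf4* and *Prdm1*, and E7.2 replicate 3 is highest for both.

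*Irf4* (chr13:30749226-30766927 of GRCm38, plus strand), the activator of the plasma cell fate, was measured at 48.8, 37.4 and 46.2 CPM in the 3 parental libraries. In E6.2 it was at 16.4, 16.3 and 9.86 CPM. The groups did not overlap, and the E6.2 libraries were below all 12 libraries of the other lines. The fall was 3.12-fold (log2 fold change -1.64 ± 0.25, adjusted p = 0.00333). E6.1 had 29.6, 42.6 and 30.5 CPM of *Irf4*, E7.1 had 30.3, 42.9 and 31.8 CPM and E7.2 had 46.4, 48.1 and 77.6 CPM. E6.1 and E7.1 overlapped the parental range, with log2 fold changes of -0.37 ± 0.24 (adjusted p = 0.902) and -0.34 ± 0.24 (adjusted p = 0.465). In E7.2 the value was 0.38 ± 0.24 (adjusted p = 0.493), and 0.13 (adjusted p = 0.73) without both libraries numbered 3. The fall in E6.2 was -1.44 (adjusted p = 0.0022) without those libraries. A fit of only the 6 parental and E6.2 libraries gave -1.63 with an adjusted p of 0.0514, which was not called. In these bulk samples fewer expressing cells and less RNA per cell cannot be told apart.

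*Prdm1* (chr10:44437177-44528501, minus strand), which encodes the repressor Blimp-1, was at 12.9, 9.40 and 11.7 CPM in A20 parental cells, from 352 to 427 counts per library. In E6.2 it was at 1.53, 2.15 and 1.98 CPM, from 39 to 71 counts. These 3 libraries were again below the other 12, and the fall was 5.97-fold (log2 fold change -2.58 ± 0.46, adjusted p = 0.0108). Being below all 12 other libraries held for 2 of the 9 genes, *Irf4* and *Prdm1*, and for 1.63% of all tested genes. Lying below all 3 parental libraries, in E6.2, held for 5 of the 9, with *Bcl11a*, *Id2* and *Id3* added, and for 8.61% of all tested genes. Without both libraries numbered 3 of E6.2 and E7.2 *Prdm1* in E6.2 was at -2.61 (adjusted p = 0.00195). Without E6.2 replicate 1 the fall in *Prdm1* was -2.46 with an adjusted p of 0.0596. *Prdm1* was at 4.57, 7.95 and 5.90 CPM in E6.1 and at 9.91, 4.83 and 4.95 CPM in E7.1. The E6.1 libraries lay below the 3 parental ones, and the share of all tested genes for which this held in E6.1 was not computed. Neither log2 fold change was called, at -0.88 ± 0.43 in E6.1 (adjusted p = 0.780) and -0.79 ± 0.43 in E7.1 (adjusted p = 0.325). E7.2 was at 5.68 and 6.88 CPM in its first and second replicates and at 21.0 CPM in replicate 3, above every other library. The log2 fold change in E7.2 was -0.02 ± 0.43 (adjusted p = 0.986) with this library and -0.81 (adjusted p = 0.19) without both libraries numbered 3.

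**Figure D3:**
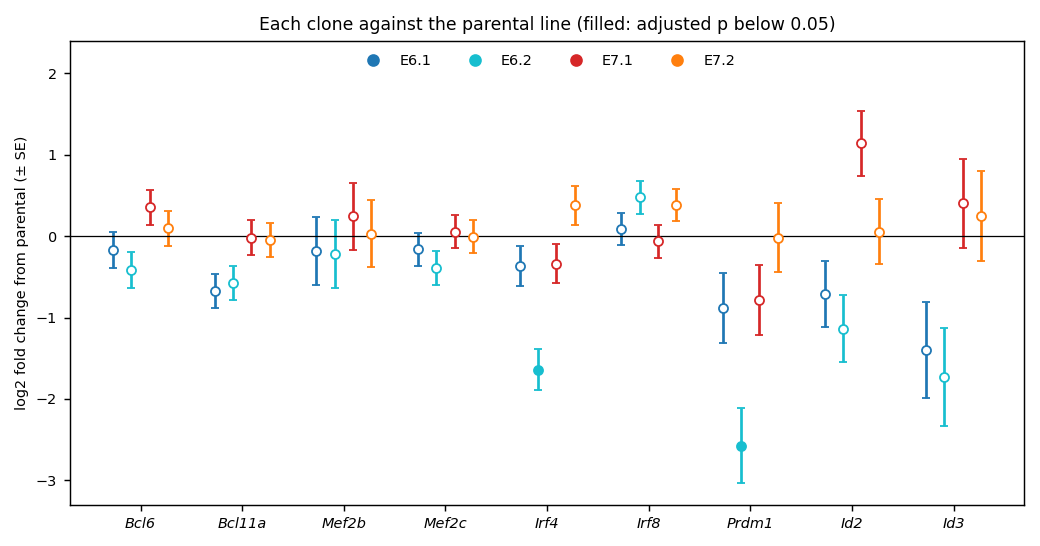
Log2 fold change from A20 parental cells (vertical axis, bars are SE) of each gene in the 4 clones; filled points have an adjusted p under 0.05. *Irf4* at -1.64 and *Prdm1* at -2.58, both in E6.2, are the filled points.

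*Irf4* and *Prdm1* were also correlated over the set of libraries, though not within every line. Over the 15 libraries Pearson's r of their log2 CPM was 0.876, and over the 12 libraries without E6.2 it was 0.677. Without both libraries numbered 3 it was 0.827 over 13, and it was not computed without both E6.2 and E7.2 replicate 3. Within A20 parental cells, E6.1 and E7.2 the libraries had the same order for both genes. In E7.1 the order was reversed. There replicate 1 had the lowest *Irf4*, 30.3 CPM, with the highest *Prdm1*, 9.91 CPM. Replicate 2 had the highest *Irf4*, 42.9 CPM, with the lowest *Prdm1*, 4.83 CPM. E6.2 had no shared order. The points share their line in threes, so these values describe the set and carry no test. The ratio of *Prdm1* to *Bcl6*, both per length, was chosen after the values were seen. It was 0.0498 ± 0.00983 in A20 parental cells and 0.0114 ± 0.00392 in E6.2, and in E7.2 it was 0.0215, 0.0243 and 0.107. It was 0.0274 to 0.0318 in E6.1 and 0.0152 to 0.0369 in E7.1. All 3 libraries of E6.1, E6.2 and E7.1 were thus below the lowest parental ratio of 0.0440, and the lowest E7.1 ratio lay within the E6.2 range, which reached 0.0156.

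**Figure D4:**
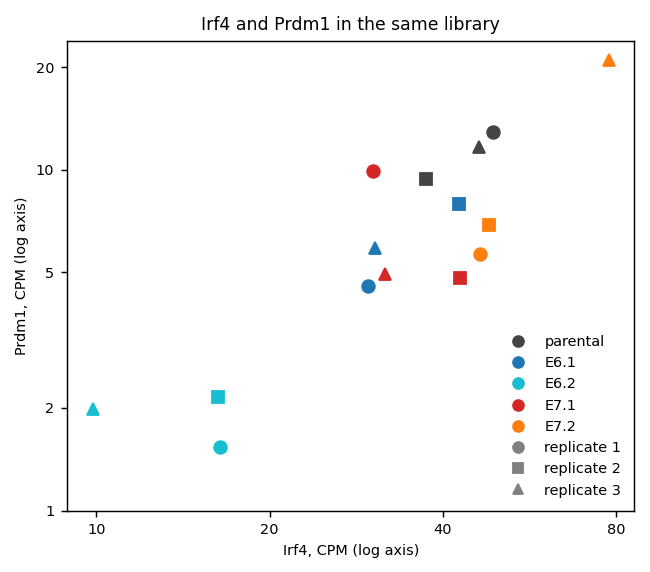
*Irf4* (horizontal, CPM, log axis) against *Prdm1* (vertical, CPM, log axis), 1 point per library, coloured by line with symbols for the replicate. The 3 E6.2 libraries sit at the lower left, from 9.86 to 16.4 CPM of *Irf4*, and E7.2 replicate 3 sits at the upper right.

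*Irf8* (chr8:120736358-120756694, plus strand), the relative of *Irf4*, was not called in any comparison. It was at 114, 161 and 131 CPM in A20 parental cells and at 151, 183 and 231 CPM in E6.2, with a log2 fold change of 0.48 ± 0.20 (adjusted p = 0.335). E7.2 had 140.3, 155 and 235 CPM, with a log2 fold change of 0.38 ± 0.20 (adjusted p = 0.415). In both clones replicate 3 was the highest library, and without these libraries the values were 0.30 (adjusted p = 0.26) in E6.2 and 0.16 (adjusted p = 0.563) in E7.2. E6.1, from 137 to 152 CPM, and E7.1, from 123 to 137 CPM, lay within the parental range. The ratio of *Irf4* to *Irf8*, both per length and also chosen after the values were seen, was 0.506 ± 0.149 in A20 parental cells. In E6.2 it was 0.162, 0.133 and 0.0638, below the other 12 libraries, of which the lowest was at 0.311.

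*Bcl6* (chr16:23965052-23988852, minus strand), the germinal centre repressor, was at 357, 260.3 and 232 CPM in A20 parental cells. No clone differed from them past the threshold. E6.2 was lowest at 239, 241 and 155 CPM (log2 fold change -0.42 ± 0.22, adjusted p = 0.430, and -0.24 without both libraries numbered 3) and E7.1 highest at 327, 360 and 397 CPM (0.35 ± 0.22, adjusted p = 0.393). E6.1, from 203 to 305 CPM, and E7.2, from 239.7 to 345 CPM, overlapped the parental libraries. *Bcl11a* (chr11:24078056-24174123, plus strand) was at 96.6, 55.7 and 52.5 CPM in A20 parental cells, so that parental replicate 1 stood apart. E6.1 was at 34.8, 52.9 and 40.8 CPM and E6.2 at 46.2, 41.5 and 49.6 CPM. E6.2 thus lay below all parental libraries, as did 8.61% of all tested genes, and E6.1 replicate 2 just above the lowest of them. The log2 fold changes were -0.67 ± 0.21 (E6.1, adjusted p = 0.399) and -0.58 ± 0.21 (E6.2, adjusted p = 0.277). Without parental replicate 1 they were -0.34 and -0.23. E7.1, from 58.0 to 75.8 CPM, and E7.2, from 64.5 to 67.0 CPM, lay inside the parental range.

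*Mef2c* (chr13:83504034-83667079, plus strand), an activator of *Bcl6* and the most abundant of the 9 per length, was at 799, 719 and 660.0 CPM in A20 parental cells. It was at 607, 673 and 665 CPM in E6.1 and at 581, 676 and 405 CPM in E6.2, where replicate 3 was the lowest library of all. E7.1 ranged from 651 to 858 CPM and E7.2 from 556 to 808 CPM. The largest difference from parental, -0.39 ± 0.21 in E6.2, was not called (adjusted p = 0.431), and it was -0.21 without both libraries numbered 3. *Mef2b* (chr8:70152778-70167488, plus strand) ranged from 0.793 to 2.21 CPM over the 15 libraries, with 25 to 81 counts, and the lines overlapped. Its log2 fold changes from parental were between -0.22 and 0.24 and were not called. Its counts are uncertain, because 95% of its exonic length, 1275 of 1342 bases, is shared with *Borcs8* and the counting left out read pairs that fell on both genes.

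*Id2* (chr12:25093801-25096092, minus strand) and *Id3* (chr4:136143497-136145755, plus strand) encode inhibitors of E proteins. *Id2* was at 7.50, 4.38 and 3.90 CPM in A20 parental cells and at 17.5, 8.45 and 8.80 CPM in E7.1. These groups did not overlap, and the share of all tested genes for which this held in E7.1 was not computed. The log2 fold change of 1.14 ± 0.40 in E7.1 was not called (adjusted p = 0.136). It was called at 1.16 (adjusted p = 0.0254) without both libraries numbered 3 of E6.2 and E7.2, neither of which enters the contrast itself, and the same fit called 2166 of all tested genes. *Id2* was at 2.73, 3.79 and 3.13 CPM in E6.1 and at 2.68, 3.39 and 1.11 CPM in E6.2, below all parental libraries in both clones. The log2 fold changes there were -0.71 ± 0.41 (adjusted p = 0.843) and -1.14 ± 0.41 (adjusted p = 0.275), the latter -0.79 (adjusted p = 0.224) without both libraries numbered 3. *Id3* was the least abundant of the 9, at 1.15, 0.721 and 0.670 CPM in A20 parental cells. It was at 0.285, 0.425 and 0.250 CPM in E6.1 and at 0.0787, 0.333 and 0.331 CPM in E6.2, from 2 to 13 counts per library, and E6.2 replicate 1 was under the floor of 3 counts. Neither log2 fold change was called, at -1.40 ± 0.59 (adjusted p = 0.650) and -1.73 ± 0.60 (adjusted p = 0.246).

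The clones were then compared with each other, first within an exon. Between E6.2 and E6.1, 1 of the 9 genes was called, *Irf4*, which was 2.42-fold lower in E6.2 (log2 fold change -1.27 ± 0.25, adjusted p = 0.0179). Of all tested genes 1.24% were called in this comparison, and 0.762% were called lower. It was not called without E6.1 replicate 2 (-1.09, adjusted p = 0.104), without E6.2 replicate 3 (-1.05, adjusted p = 0.0594) or in a fit of the 6 libraries alone (-1.25, adjusted p = 0.145), and it was called at -1.08 (adjusted p = 0.0120) without both libraries numbered 3. *Prdm1* differed by -1.69 ± 0.45 between the same clones (adjusted p = 0.102). Without E7.2 replicate 3, which enters only through the shared estimate of the spread, that value was -1.70 and was called (adjusted p = 0.00931). Between E7.2 and E7.1 edgeR's test called 0 of the 9 and the DESeq2 Wald test 0 of the 9, where edgeR called 0.59% of all tested genes. An unadjusted p under 0.05 was found for 3 of the 9 and for 13.3% of all tested genes. Those 3 were *Irf4* (0.71 ± 0.24, adjusted p = 0.258), *Id2* (-1.08 ± 0.40, adjusted p = 0.291) and *Irf8* (0.45 ± 0.20, adjusted p = 0.360).

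The largest number of calls among the 9 genes came from the exon 7 against the exon 6 clones. In the E7 clones 6 of the 9 were called and all 6 were higher, *Id3*, *Id2*, *Prdm1*, *Irf4*, *Bcl11a* and *Bcl6*. Of all tested genes 12.1% were called in this comparison and 6.21% were called higher. The median log2 fold change of the 9 genes was 0.59 and that of all tested genes was -0.03. The error of this test is the spread between libraries of a line, not between clones, so it compares these 2 pairs of clones and does not extend to other clones of either exon. The 5 myeloid markers summed to 0.421 to 1.73 CPM in the E6 libraries and to 1.43 to 4.62 CPM in the E7 libraries, against 1.87 to 8.10 CPM in A20 parental cells, and their part in these differences was not tested. *Irf8*, *Mef2c* and *Mef2b* were not called, with log2 fold changes of -0.12 ± 0.14 (adjusted p = 0.595), 0.30 ± 0.14 (adjusted p = 0.177) and 0.34 ± 0.30 (adjusted p = 0.464).

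*Bcl11a* was at 34.8 to 52.9 CPM in the 6 E6 libraries (median 43.9) and at 58.0 to 75.8 CPM in the 6 E7 libraries (median 66.7). *Id3* was at 0.0787 to 0.425 CPM (median 0.308) and at 0.485 to 2.06 CPM (median 0.816). In these 2 of the 9 genes every E7 library was above every E6 library, as it was in 1.81% of all tested genes. *Id3* differed 3.70-fold (log2 fold change 1.89 ± 0.42, adjusted p = 0.0152) and *Bcl11a* 1.51-fold (0.59 ± 0.15, adjusted p = 0.0254). The parental mean of *Bcl11a*, 68.3 CPM, was near the E7 mean of 66.7 CPM and above the E6 mean of 44.3 CPM. For *Id3* the parental mean of 0.847 CPM was likewise nearer the E7 mean of 1.06 than the E6 mean of 0.284 CPM.

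*Id2* ranged from 1.11 to 3.79 CPM in the E6 libraries (median 2.93) and from 3.69 to 17.5 CPM in the E7 libraries (median 7.49), with 5 of 6 E7 libraries above all E6 libraries. It was 2.87-fold higher in the E7 clones (log2 fold change 1.52 ± 0.29, adjusted p = 0.00821), with the parental mean of 5.26 CPM between the E6 mean of 2.80 and the E7 mean of 8.51 CPM. *Irf4* ranged from 9.86 to 42.6 CPM (median 23.0) and from 30.3 to 77.6 CPM (median 44.6), and the difference was 2.03-fold (log2 fold change 1.02 ± 0.18, adjusted p = 0.00472). *Irf4* in E6.1 and in E7.1 overlapped almost entirely, at 34.2 ± 7.28 and 35.0 ± 6.87 CPM, so the groups were set apart by E6.2 on one side and E7.2 on the other. *Prdm1* ranged from 1.53 to 7.95 CPM (median 3.36) and from 4.83 to 21.0 CPM (median 6.28), and 2 of 6 E7 libraries exceeded all E6 libraries. Its difference was 2.51-fold (log2 fold change 1.33 ± 0.31, adjusted p = 0.0190), and its parental mean of 11.3 CPM was above both the E6 mean of 4.02 and the E7 mean of 8.87 CPM. *Prdm1* too overlapped between E6.1 and E7.1, at 6.14 ± 1.70 and 6.56 ± 2.90 CPM. E6.2 was below both, at 1.89 ± 0.317 CPM. E7.2 was within the E6.1 range in replicates 1 and 2, at 5.68 and 6.88 CPM, and above it at 21.0 CPM in replicate 3. *Bcl6* ranged from 155 to 305 CPM (median 239.9) and from 239.7 to 397 CPM (median 336), 1.43-fold apart (log2 fold change 0.52 ± 0.16, adjusted p = 0.0465).

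How many of the 9 passed in this comparison depended on single libraries of E6.1. Without E6.1 replicate 1, or without E6.1 replicate 3, the count was 2, *Irf4* and *Id2*, and the genes called among all tested fell in the same fits from 1677 to 399 and 431. *Bcl6* was called in 5 of the 15 fits that left out 1 library, with adjusted p values of 0.0118 to 0.127 over all alternatives. *Bcl11a* was also not called without E6.2 replicate 2, E7.1 replicate 3, or replicate 1 or 2 of E7.2 (adjusted p from 0.0544 to 0.0617), nor was *Prdm1* without E7.1 replicate 1 (adjusted p = 0.0526). Without both libraries numbered 3 of E6.2 and E7.2 the count was 7, with *Mef2c* added at 0.32 (adjusted p = 0.0334), beside 4734 genes among all tested. In that fit the log2 fold change of *Prdm1* was 0.95 (adjusted p = 0.00917) and that of *Irf4* 0.81 (adjusted p = 0.00195). Those of *Id3*, *Id2*, *Bcl11a* and *Bcl6* were 2.13, 1.48, 0.66 and 0.53. A test for any difference among the 5 lines called 3 of the 9, *Irf4* (adjusted p = 0.00353), *Id2* (adjusted p = 0.0222) and *Prdm1* (adjusted p = 0.0246), where 6.28% of all tested genes were called. That count was 1, *Irf4*, without E6.1 replicate 3.

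**Figure D5:**
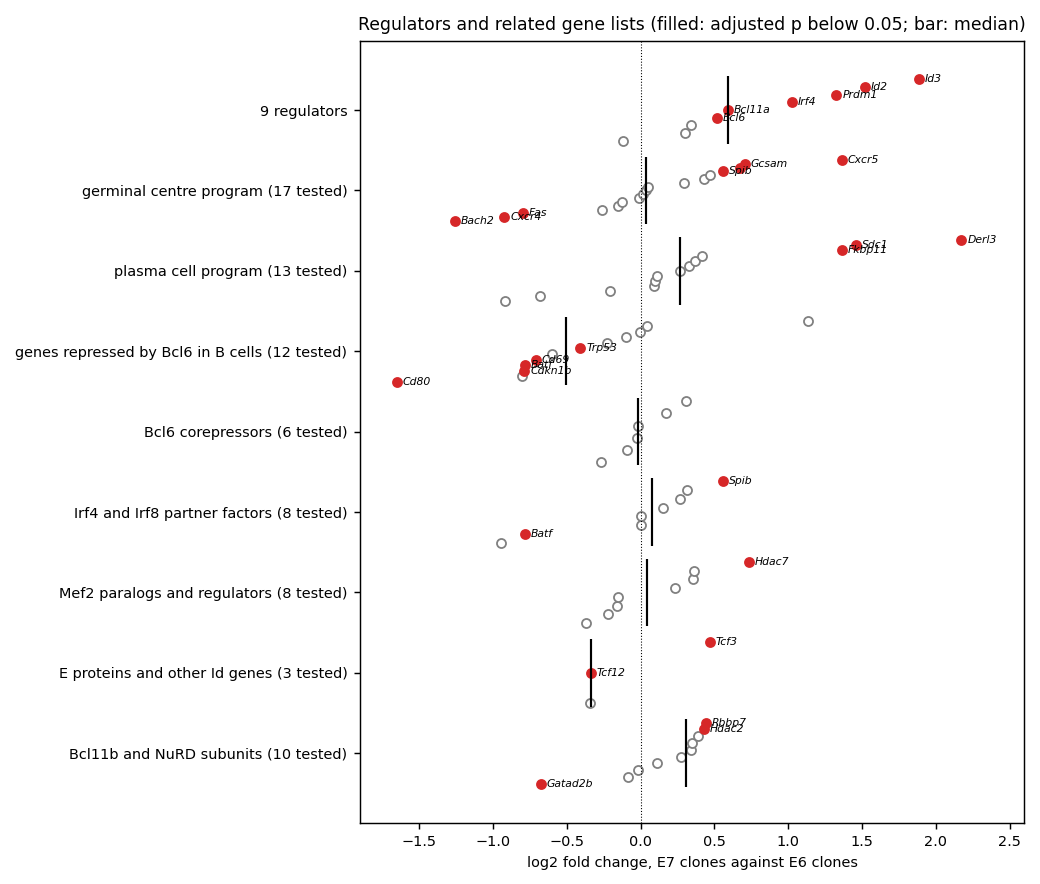
Log2 fold change of the E7 against the E6 clones (horizontal axis) for the 9 regulators and the tested genes of 8 related lists; red points, named where reported here, have an adjusted p under 0.05 and the bar is the list's median. The 6 called regulators lie to the right of 0, and the 5 called genes of the list repressed by Bcl6 lie to the left. *Prdm1*, which Bcl6 also represses, is among the regulators and not in that list.

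The genes around these regulators were followed through 8 lists with 84 genes, of which 75 passed the filter. Against A20 parental cells, 2 of the 75 were called in any clone, *Cd69* and *Cdkn1b*. Both fell in E7.1, where 0.82% of all tested genes were called lower, and both belong to the genes that Bcl6 represses in B cells. *Cd69*, an early activation antigen, was at 13.5 ± 2.69 CPM in A20 parental cells and 4.69 ± 1.37 CPM in E7.1 (log2 fold change -1.53 ± 0.31, adjusted p = 0.0387). *Cdkn1b*, which encodes the cell cycle inhibitor p27, was at 64.5 ± 16.6 and 30.9 ± 4.62 CPM (-1.06 ± 0.24, adjusted p = 0.0490). *Cd69* and *Cdkn1b* sat near the threshold. The count of 2 was 0 without parental replicate 2 or 3, E6.1 replicate 1 or 3, E7.1 replicate 1 or 3, or E7.2 replicate 2, and it was 1 without E6.2 replicate 2, E7.1 replicate 2 or E7.2 replicate 1. It was 12 without E6.2 replicate 3, 9 without parental replicate 1, 8 without E7.2 replicate 3, 4 without E6.2 replicate 1, and 24 without both libraries numbered 3 of E6.2 and E7.2. In the same order, the genes called among all tested in E7.1 against parental were 1011, 968, 610, 296 and 2166, against 169 with all libraries. In the fits with a list count of 0 or 1 they were 30 to 92.

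In the other 7 lists 0 of 64 tested genes were called against parental by edgeR's test. An unadjusted p under 0.05 in some clone was found for 30 of these 64. Clone by clone, the share of all tested genes with such a p went from 6.71% (E6.1) up to 20% (E7.1). The share with one in any clone was not computed, so the 30 have no matching baseline. The DESeq2 Wald test called 20 of all 75 list genes. Among all genes it called from 155 (E6.1) to 1157 (E7.1) per clone. The gene with the smallest unadjusted p is given for each list as not called. In the germinal centre program this was *Fas*, a death receptor that germinal centre B cells carry, at -1.07 ± 0.25 in E7.1 (adjusted p = 0.0522). In the plasma cell program it was *Fkbp11*, a folding enzyme of secretory cells, at -2.09 ± 0.62 in E6.2 (adjusted p = 0.165), where its level was 0.0301 to 0.236 CPM and in part under the floor of 3 counts. Among the Bcl6 corepressors it was *Hdac3*, a histone deacetylase, at 0.42 ± 0.10 in E7.1 (adjusted p = 0.0619). For the partner factors of Irf4 and Irf8 it was *Jun*, a subunit of AP-1, at -1.35 ± 0.48 in E7.2 (adjusted p = 0.285). Among the Mef2 paralogs and regulators it was *Mef2a* at -0.52 ± 0.13 in E7.1 (adjusted p = 0.0580). *Tcf3*, which encodes E2A, was at -0.55 ± 0.20 in E6.1 (adjusted p = 0.523), and *Gatad2b*, a subunit of the NuRD repressor complex, was at 1.04 ± 0.26 in E6.2 (adjusted p = 0.0847).

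Between the E7 and E6 clones 21 of the 75 list genes were called, 11 higher and 10 lower, where 12.1% of all tested genes were called, 6.21% higher and 5.85% lower. These genes are named after their values were seen. In the germinal centre program 4 of 17 tested genes rose and 3 fell, with a list median of 0.03. *Cxcr5*, the receptor that draws B cells to follicles, was higher in the E7 clones at 1.36 ± 0.21 (adjusted p = 0.00337). *Bach2*, a repressor that delays the plasma cell fate, was lower at -1.26 ± 0.26 (adjusted p = 0.0109). *Cxcr4*, the receptor of the dark zone, was lower at -0.92 ± 0.23 (adjusted p = 0.0230), and the calls also included *Gcsam* and *Spib*, which were higher, and *Fas*, which was lower. *Gcsam*, a germinal centre signalling adaptor, was also the 1 list gene called between E6.2 and E6.1, at -1.16 ± 0.23 (adjusted p = 0.0179). It was at 376 ± 103 CPM in E6.1, 408 ± 52.3 CPM in E7.1 and 413 ± 104 CPM in E7.2. E6.2, at 169 ± 22.5 CPM, was alone low among the clones.

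In the plasma cell program 3 of 13 tested genes rose and 0 fell between the E7 and E6 clones, where 6.21% of all tested genes were called higher, with a list median of 0.27. They were *Derl3*, a component of protein degradation at the endoplasmic reticulum, at 2.17 ± 0.37 (adjusted p = 0.00474), *Sdc1*, the surface marker CD138, at 1.46 ± 0.37 (adjusted p = 0.0247), and *Fkbp11* at 1.36 ± 0.40 (adjusted p = 0.0438). Their levels were low throughout. *Fkbp11* was lower in E7.1, at 0.388 ± 0.155 CPM, than in E6.1, at 0.663 ± 0.0530 CPM. It was at 0.119 ± 0.106 CPM in E6.2 and 1.31 ± 0.67 CPM in E7.2. *Sdc1* ranged from 0.276 to 5.17 CPM over the 15 libraries, its highest level in parental replicate 1. Of the genes repressed by Bcl6, 5 of 12 tested fell and 0 rose, where 5.85% of all tested genes were called lower, and the list median was -0.50. They were *Cd80*, a costimulatory ligand, at -1.65 ± 0.42 (adjusted p = 0.0253), *Cdkn1b* at -0.79 ± 0.17 (adjusted p = 0.0136), *Batf* at -0.79 ± 0.17 (adjusted p = 0.0149), *Cd69* at -0.71 ± 0.22 (adjusted p = 0.0491) and *Trp53* at -0.41 ± 0.11 (adjusted p = 0.0346). *Cd80* was at 2.61 ± 0.161 CPM in E6.1 and at 0.523 ± 0.409 CPM in E6.2, so that E6.1 alone was high among the clones. *Prdm1*, which Bcl6 also represses, was counted with the regulators, so the 0 that rose leaves it out. *Prdm1* went the other way, higher in the E7 than in the E6 clones at 1.33 ± 0.31 (adjusted p = 0.019).

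Among the partners of the 2 interferon regulatory factors, 2 of 8 tested genes were called, *Batf* lower and *Spib* higher (0.56 ± 0.14, adjusted p = 0.0216). The 6 Bcl6 corepressors had 0 calls by edgeR's test, with 1 at an unadjusted p under 0.05 and a median of -0.02. The 8 Mef2 paralogs and regulators had 1, *Hdac7*, which was higher at 0.73 ± 0.17 (adjusted p = 0.0186). Of 3 tested E proteins, the targets of the Id proteins, *Tcf3* was higher at 0.47 ± 0.14 (adjusted p = 0.0440) and *Tcf12* lower at -0.34 ± 0.10 (adjusted p = 0.0479). *Id1* and *Id4* did not pass the filter on low counts. In the NuRD complex, to which Bcl11a binds, *Rbbp7* and *Hdac2* were higher (0.44 ± 0.13 and 0.43 ± 0.11) and *Gatad2b* lower (-0.68 ± 0.18), which is 3 of 10 tested genes. *Gatad2b* was at 48.9 ± 2.67 CPM in E6.1, 35.6 ± 2.56 CPM in E7.1 and 47.6 ± 3.32 CPM in E7.2. E6.2, at 88.5 ± 46.2 CPM, was alone high among the clones.

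For each of the 6 genes called in any comparison, the 2 tested genes most alike over the 15 libraries were found by Pearson's r of log2 CPM. They are a description, since the libraries come in threes and share their lines and their depth. *Bcl6* was most like *Gm12679* (r = 0.980), and *Id2* was most like *Mgll* (r = 0.978) and *Med14* (r = 0.944). *Irf4* was most like *Ly6c2* (r = 0.936) and *Ehhadh* (r = 0.928). The second gene most like *Prdm1* was *Irf4* itself, after *Ly6c1* (r = 0.882), and *Ly6c1* and *Ly6c2* are near-identical paralogs whose counts are uncertain. *Bcl11a* was most like *Jph1* (r = 0.926) and *Kdm1b* (r = 0.925), and *Id3* was most like *Fam107b* (r = 0.896) and *Pkig* (r = 0.893). Among the 9 genes themselves *Bcl6* and *Id2* had the highest r, 0.882, which was 0.787 over the 12 libraries without E6.2.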

How the data were processed

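RNA of 5 lines, the A20 parental cells and 4 *Foxp1* clones, was measured in 15 libraries. The authors deposited raw counts of read pairs per gene for each library. Per the labels and file headers they aligned with HISAT to mm10 (version not given in the sources used here) and counted with featureCounts 1.5.0 over GRCm38 gene models to which ERCC spike-ins were added. Pairs were counted without strand, and pairs at several places or on several genes were left out. The 92 spike-ins had a total of 0. Symbols were matched for 40254 of 41388 genes.

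Counts were tested in R 4.3.3 with edgeR 4.0.16 (filterByExpr by line, 13904 genes kept; TMM; glmQLFit and glmQLFTest with the line as the factor over 15 libraries). Each comparison was adjusted by Benjamini-Hochberg over all tested genes, and genes were called where that value was under 0.05. SE is the log2 fold change divided by the root of its F. Levels are CPM over TMM-scaled library sizes; the floor of 3 counts was 0.0751 to 0.118 CPM, for counting error only. CPM per kilobase uses the exonic length in the tables. No 2 libraries were copies. The test was checked on simulated data.

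The members, lists and comparisons were chosen with earlier results of these data known. Named were the 9 genes, *Foxp1*, list genes called against parental or else the one with the smallest p, and the 2 tested genes most alike each called gene; 2 genes of these lists are not reported here. Markers and promoters came from gene lists and RefSeq (GRCm38.p6). Alternatives were DESeq2's size factors, no filter, DESeq2 1.42.0 (Wald test, or likelihood ratio for any difference), edgeR's likelihood ratio test, its newer quasi-likelihood method, a replicate block, a 2-fold threshold on top, only the libraries of the lines compared, each library left out, and 2 libraries numbered 3 left out.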

Additional observations from a re-analysis of the deposited data

Results flagged for a closer look

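The difference between 2 clones made at the same exon passed the test for *Irf4*, at a log2 fold change of -1.27 in E6.2 against E6.1. Between the E7 and E6 clones the test of the difference passed for 6 of the 9 genes, with log2 fold changes of 1.89 for *Id3*, 1.52 for *Id2*, 1.33 for *Prdm1*, 1.02 for *Irf4*, 0.59 for *Bcl11a* and 0.52 for *Bcl6*. *Foxp1* RNA differed between the same clones by -1.09 (quasi-likelihood test in edgeR, adjusted p = 0.000609), and its part in these differences was not tested.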

How the results depend on the processing

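The counts of the 9 genes called in E6.1 and E7.2 against parental and in E7.2 against E7.1 were 0 under every alternative run. In E6.2 against parental the count of 2 became 1 in a fit of the libraries compared, and ranged from 1 to 2 with 1 library left out. In E6.2 against E6.1 the count of 1 became 2 with no filter, DESeq2, the likelihood ratio test or without both libraries numbered 3, became 0 in a fit of the libraries compared, and ranged from 0 to 2. In the E7 against the E6 clones the count ranged from 2 to 6 with 1 library left out, and in E7.1 it became 1 without both libraries numbered 3. For any difference among the lines it became 5 with no filter, DESeq2 or the likelihood ratio test, and ranged from 1 to 4 with 1 library left out. The list genes called against parental became 7 with no filter, 20 with DESeq2, 14 with the likelihood ratio test, 4 with the newer quasi-likelihood method, 1 with the replicate block and 24 without both libraries numbered 3, and ranged from 0 to 12. Among all genes of each fit, the calls in E7.1 against parental went from 169 to 343, 1157, 748, 240, 163 and 2166 in the same order. With 1 library left out those calls ranged from 30 to 1011. Some of these fits hold fewer libraries, and beyond that the cause was not tested.

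Libraries of parental cells and a clone that shared a number deviated from their line's mean with a correlation, averaged over the pairs, of 0.134 for E6.2, 0.101 for E7.2, -0.0127 for E7.1 and -0.0287 for E6.1. The single pairs were at 0.0211 to 0.213 for E6.2 and at 0.0603 to 0.122 for E7.2. Libraries of different clones that shared a number were not compared, so a batch shared by number was not tested. With the replicate block the counts of the 9 genes were unchanged in all 8 comparisons.

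Of the values that were not called, 55 changed sign, counted over genes, comparisons and fits. *Mef2c* in E7.2 against parental became 0.014 with DESeq2's size factors, 0.0017 with no filter, 0.014 with DESeq2, 0.012 in a fit of the libraries compared and 0.19 without both libraries numbered 3. Without both, *Bcl11a* became 0.0089 in E7.1 and 0.0024 in E7.2, *Mef2b* 0.17 in E6.2 against E6.1, and in E7.2 against E7.1 *Prdm1* became -0.049, *Mef2c* 0.11 and *Id3* 0.065. With 1 library left out, against parental, E6.1 ranged from -0.33 to 0.028 for *Bcl6*, -0.025 to 0.24 for *Irf8* and -0.52 to 0.10 for *Mef2b*, and E6.2 from -0.74 to 0.064 for *Mef2b*. E7.1 ranged from -0.17 to 0.34 for *Bcl11a*, -0.39 to 0.76 for *Id3*, -0.16 to 0.085 for *Irf8* and -0.047 to 0.15 for *Mef2c*. E7.2 ranged from -0.20 to 0.31 for *Bcl11a*, -0.027 to 0.32 for *Bcl6*, -0.12 to 0.42 for *Id2*, -0.14 to 0.55 for *Id3*, -0.21 to 0.32 for *Mef2b*, -0.089 to 0.19 for *Mef2c* and -0.81 to 0.30 for *Prdm1*. E6.2 against E6.1 ranged from -0.037 to 0.27 for *Bcl11a*, -0.58 to 0.051 for *Id3* and -0.56 to 0.29 for *Mef2b*. E7.2 against E7.1 ranged from -0.13 to 0.059 for *Bcl11a*, -0.54 to 0.64 for *Id3*, -0.16 to 0.11 for *Mef2c* and -0.048 to 1.19 for *Prdm1*.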
